A study of Mus musculus with 4 samples.

Results

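The genes described here encode the subunits of the oxidative phosphorylation machinery. They were chosen by gene symbol as rows starting with Nduf followed by a, b, c, s or v and a digit, the Sdha, Sdhb, Sdhc and Sdhd genes, rows starting with Uqcr, Cox4 to Cox8 or Atp5, and the mt- rows for Nd, Co, Atp and Cytb. This rule found 99 members among 22631 measured genes, of which 86 are encoded in the nucleus and 13 in the mitochondrial genome. They were measured by droplet single-cell RNA sequencing (10x 3′ chemistry, version 3) of migratory dendritic cells (DCs) from the lymph node that drains the ear of mice.

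All mice were Tnfsf4KI/+, a knock-in that reports Tnfsf4, which encodes the costimulatory ligand OX40L, by a blue fluorescent protein (BFP). In one group the ears received MC903, a vitamin D analogue under which the cytokine TSLP is overexpressed, on days 0, 2 and 4. In the other group the ears were left untreated. On day 5, 5000 BFP+ and 7000 BFP- cells per group were sorted as B220- CD11c intermediate MHC class II high. Each of the 4 sorted populations carried its own hashtag antibody, and both populations of a treatment were loaded together in 1 droplet capture. The reporter was carried in the heterozygous state by every cell compared, so no DCs with 2 unaltered Tnfsf4 alleles were included, and how many mice went into each pool was not stated. With 1 pool per population there is no replicate, and every interval below covers counting error only. Treatment, capture and sequencing lane cannot be told apart.

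As background, oxidative phosphorylation takes place at the inner mitochondrial membrane. Complex I (the Nduf and mt-Nd genes) and complex II (the Sdh genes) pass electrons to ubiquinone, complex III (Uqcr genes and mt-Cytb) passes them to cytochrome c, and complex IV (Cox and mt-Co genes) passes them to oxygen. Complexes I, III and IV pump protons, and complex V (the Atp5 and mt-Atp genes) lets them flow back to make ATP. All complexes but complex II combine subunits from both genomes, and the nuclear subunits are transcribed singly, while the mitochondrial ones are cut from long polycistronic transcripts. DCs activated by Toll-like receptor ligands are known in mice to shift toward glycolysis, and both energy pathways are studied for their part in DC maturation and migration.

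With both Atp5o identifiers taken as the same gene, a RefSeq promoter (250 bases before to 50 bases after the gene start, build GRCm38.p6) was available for 69 genes among the 86 nuclear members. They were searched on both strands for the core of 3 factors known for nuclear genes of respiration: NRF1 (GCGCATGC), ETS factors such as GABP (CCGGAAGT) and YY1 (AAGATGGC). A gene with several promoters counted where any of them matched. The NRF1 core was in 10 of 69 members (14.5%) and in 4.07% of all 16869 genes with a promoter. The YY1 core was in 10 members (14.5%) and in 3.60% of these genes, and the ETS core in 5 members (7.25%) and in 5.87%. At least 1 of the 3 cores was found in 24 members (34.8%), against 12.6% of all genes with a promoter, and a match describes these letters only. The 4 promoters below show each core in a gene that recurs in the results: Uqcrc1, higher in the MC903 capture, and Ndufa6, lower in it, both with the NRF1 core; Ndufa9, lower in BFP+ cells, with the YY1 core; and Uqcrh, higher in BFP+ cells, with the ETS core. Capitals mark the core, on either strand; in Uqcrc1 matches on both strands overlap.
Uqcrc1, chr9:108936398-108936697, plus strand: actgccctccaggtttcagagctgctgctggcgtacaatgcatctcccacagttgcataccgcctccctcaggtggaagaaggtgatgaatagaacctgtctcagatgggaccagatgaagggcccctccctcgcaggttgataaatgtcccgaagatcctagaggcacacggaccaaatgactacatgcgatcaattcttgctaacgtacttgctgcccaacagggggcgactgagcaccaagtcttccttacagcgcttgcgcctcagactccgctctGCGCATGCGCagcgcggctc
Ndufa6, chr15:82354242-82354541, minus strand: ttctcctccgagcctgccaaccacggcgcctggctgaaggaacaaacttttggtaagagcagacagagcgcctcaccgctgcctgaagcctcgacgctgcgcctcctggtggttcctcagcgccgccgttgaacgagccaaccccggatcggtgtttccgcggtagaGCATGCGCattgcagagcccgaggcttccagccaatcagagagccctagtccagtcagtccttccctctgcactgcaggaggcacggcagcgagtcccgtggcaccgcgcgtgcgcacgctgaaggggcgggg
Ndufa9, chr6:126849095-126849394, minus strand: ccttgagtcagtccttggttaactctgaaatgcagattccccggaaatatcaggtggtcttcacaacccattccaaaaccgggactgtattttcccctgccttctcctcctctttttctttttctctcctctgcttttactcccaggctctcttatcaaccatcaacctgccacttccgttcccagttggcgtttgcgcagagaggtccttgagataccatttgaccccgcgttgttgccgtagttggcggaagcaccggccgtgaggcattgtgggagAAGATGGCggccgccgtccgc
Uqcrh, chr4:116075021-116075320, minus strand: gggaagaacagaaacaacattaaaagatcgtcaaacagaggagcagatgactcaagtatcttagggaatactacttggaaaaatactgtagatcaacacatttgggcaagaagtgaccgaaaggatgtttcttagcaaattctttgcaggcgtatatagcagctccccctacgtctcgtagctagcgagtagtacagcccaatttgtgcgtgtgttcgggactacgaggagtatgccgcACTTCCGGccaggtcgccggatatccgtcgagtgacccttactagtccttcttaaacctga

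Before the results, the libraries themselves differed. The MC903 capture held 6316 cell codes with 57148072 unique molecular identifiers (UMIs, 1 per captured transcript), and the untreated capture 9520 with 33525154. After the filters (at least 500 genes and at most 10% of UMIs from mt- genes) 5636 and 8422 cells remained, with a median of 9219 and 2622 UMIs. The 13 mt- members are every mt- gene in the files, so the filter caps the same sum that is described below. By that limit alone, 3.24% of BFP+ and 7.41% of BFP- cells were dropped in the MC903 capture, against 8.63% and 8.04% in the untreated capture. The captures shared 23 cell codes.

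Cells were placed in a population when at least 80% of at least 20 hashtag counts came from 1 hashtag. Cells passed as DCs when at least 3 UMIs came from at least 2 of 8 migratory DC markers and fewer than 2 B and fewer than 2 T cell markers were found. This held for 4682 (83.1%) of the MC903 and 6103 (72.5%) of the untreated cells. All 8 markers (among them Ccr7, Fscn1 and Ccl22) were above 0 in every group, and their sum was 7904 to 14537 counts per 1e+06 gene UMIs (CPM) across the DC groups. It was 4023 to 5734 CPM in B cell-like and T cell-like cells, so DC transcripts were also counted in cells outside the gate. Summed over DCs, BFP+ populations held 1418 MC903 cells and 456 untreated cells, and BFP- populations 3146 and 4159. BFP transcripts were at 106 CPM in MC903 BFP+ and 10.0 CPM in MC903 BFP- cells, and at 71.5 and 6.30 CPM in the untreated pair. The untreated hashtags were less clear: 1488 untreated DCs, against 118 MC903 DCs, fell in no population. Another caller of hashtags (HTODemux) put 2417 untreated cells in BFP+, of which 1551 had no dominant hashtag here.

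The nuclear encoded members took nearly the same share of all UMIs in every DC population. Their share was 1.78% in MC903 BFP+ cells against 1.83% in untreated BFP+ cells, and 1.79% in MC903 BFP- cells against 1.84% in untreated BFP- cells. The mt- encoded members were the larger part and varied more. Their share was 3.33% in MC903 BFP+ cells against 3.75% in untreated BFP+ cells, and 3.60% in MC903 BFP- cells against 4.03% in untreated BFP- cells. The exact (Clopper-Pearson) 95% intervals of these shares are narrow, the widest being 3.73% to 3.78% for the mt- members of untreated BFP+ cells. Counting error alone is thus far smaller than the gaps between the mt- shares, but the intervals leave out the spread between cells. In cells thinned to 2000 UMIs the variance of mt- counts was 14.9 to 22.0 times the mean across the 4 populations. Mean mt- UMIs of thinned cells were 83.3 in untreated BFP+ and 83.9 in untreated BFP- cells.

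Among the nuclear members, complexes IV and V gave the most UMIs, with 0.543% and 0.562% of all UMIs in MC903 BFP+ cells, followed by complex I with 0.451%, complex III with 0.196% and complex II with 0.0256%. The same order of complexes I, III and II held in the other 3 populations. Nuclear complex IV was 0.557% in MC903 BFP- cells against 0.590% in untreated BFP- cells, and complex V 0.555% against 0.548%. The mt- members of complex IV (mt-Co1, mt-Co2 and mt-Co3) held 2.03% of all UMIs in MC903 BFP+ cells and 2.24% in untreated BFP+ cells, more than all other mt- members together. A 3′ count is 1 per transcript and is not divided by length. B cell-like and T cell-like cells failed the DC gate and had at least 3 markers of their own type and fewer than 2 of the other. They had more mt- UMIs, with 5.87% in MC903 and 5.29% in untreated B cell-like cells, and 5.03% and 4.99% in T cell-like cells. Median UMIs per cell were 3270 in MC903 B cell-like and 5259 in MC903 T cell-like cells, against 9786 in MC903 DCs. In the untreated capture they were 2735.5 and 3326, against 2627. The part of depth in these shares was not tested. A count depends on how well a poly(A) tail is captured, which for mitochondrial transcripts was not tested.

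**Figure D1:**
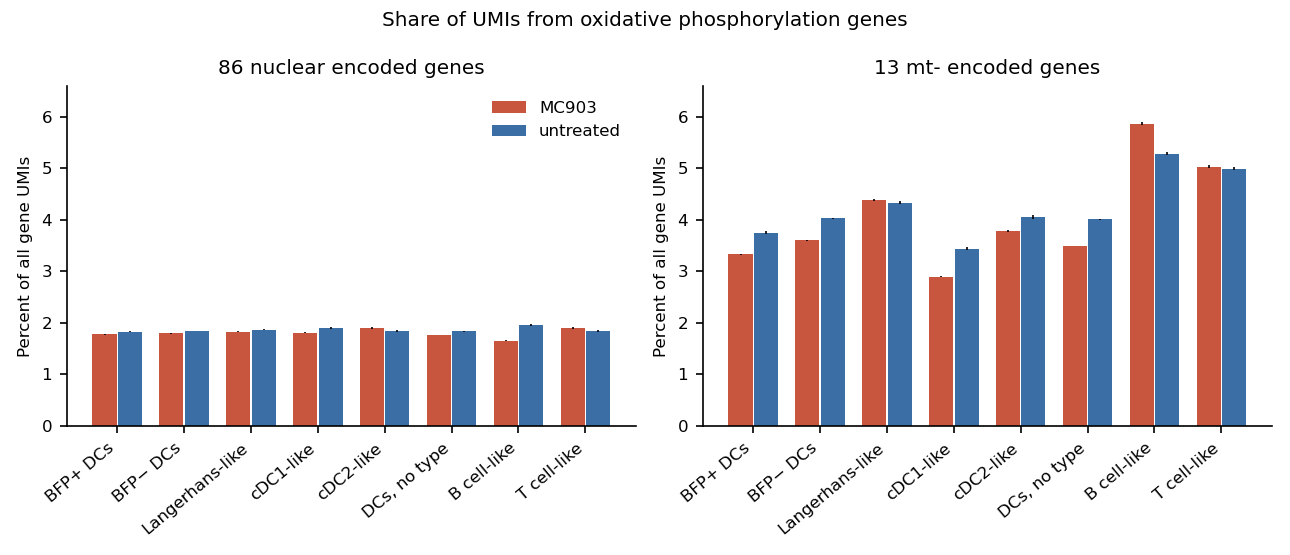
Share of all gene UMIs (percent) taken by nuclear encoded members and by mt- encoded members in each DC group and in B cell-like and T cell-like cells of the MC903 and untreated captures, as bars with exact 95% intervals for counting error. The nuclear share lies between 1.77% and 1.90% in every DC group, while the mt- share of the DC groups runs between 2.90% and 4.38%, below the B and T cell-like cells.

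Of the 99 members, 88 passed the level filter of a mean of at least 20 CPM over the 4 populations, 76 nuclear and 12 mt- encoded, and ratios are given for these. The filter was met by 4748 genes in all. The 11 others were Ndufs1, which fell just short with 15.8 to 20.6 CPM, mt-Nd6 with 11.3 to 16.7 CPM, tissue isoforms treated further down (Cox4i2, Cox6a2, Cox6b2, Cox7a1, Cox7b2, Cox8b, Cox8c and Ndufa4l2) and the second of 2 identifiers named Atp5o. A gene is called higher or lower where the ratio of CPM is at least 1.5-fold, and a looser 1.2-fold is given beside it.

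Between the MC903 and the untreated capture, few nuclear members differed by 1.2-fold or more. In BFP+ cells the median log2 ratio of MC903 over untreated was -0.03 over the 76 nuclear members and -0.04 over all 4748 genes. None of the 76 was 1.5-fold higher, against 2.95% of all genes, and none was 1.5-fold lower, against 3.69%. At 1.2-fold, 3 were higher (13.6% of all genes) and 6 lower (19% of all genes). In BFP- cells the median was -0.06 for nuclear members and -0.02 for all genes, and over genes at or above a mean of 161 CPM it was -0.05 for nuclear members and 0.03 for all genes. There none was 1.5-fold higher (4.76% of all genes) and 1 was lower (3.98%), and at 1.2-fold 2 were higher (16.6%) and 4 lower (17.6%). The sign of these medians depends on the scaling: with TMM factors, which shift every ratio by 0.13 in BFP+ and 0.14 in BFP- cells, they were 0.10 and 0.08, and the shift is the same for all genes.

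The members that differed in the same direction in both populations came from several complexes. Ndufv2, an iron-sulfur subunit of the part of complex I that oxidises NADH, had 137 CPM in MC903 BFP+ cells against 94.2 CPM in untreated BFP+ cells, and 144 CPM in MC903 BFP- cells against 111 CPM in untreated BFP- cells. Both MC903 pools lay above both untreated pools, with log2 ratios of 0.54 (0.36 to 0.72) in BFP+ and 0.38 (0.30 to 0.46) in BFP- cells. Atp5b, the catalytic beta subunit of ATP synthase, had 431 CPM in MC903 BFP+ cells against 332 CPM in untreated BFP+ cells, and 442 CPM in MC903 BFP- cells against 328 CPM in untreated BFP- cells. Its log2 ratios were 0.38 (0.28 to 0.47) and 0.43 (0.38 to 0.48), so the 2 MC903 pools again stood above both untreated ones. Uqcrc1, a core subunit of complex III, had 62.0 CPM in MC903 BFP+ cells against 53.2 CPM in untreated BFP+ cells, and 67.0 CPM in MC903 BFP- cells against 57.8 CPM in untreated BFP- cells. In BFP+ cells its interval reached 0 (log2 0.22, -0.02 to 0.47), and in BFP- cells it did not (0.21, 0.10 to 0.33). Atp5d of the central stalk (log2 0.24 in BFP+ and 0.19 in BFP- cells), Atp5pb of the peripheral stalk (0.17 and 0.20) and Atp5g1, which encodes the c subunit of the rotor ring (0.15 and 0.16), came next. Of the 6 highest members 4 belong to ATP synthase, which holds 17 of the 76 nuclear members with a ratio. Over these 17 the median log2 ratio was only 0.02 in BFP+ and 0.04 in BFP- cells, with 8 and 7 below 0.

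Ndufa5, an accessory subunit of the matrix arm of complex I, was the lowest member after MC903. It had 26.1 CPM in MC903 BFP+ cells against 34.9 CPM in untreated BFP+ cells, and 29.4 CPM in MC903 BFP- cells against 45.5 CPM in untreated BFP- cells. Both MC903 pools lay below both untreated pools, and its log2 ratio of -0.63 (-0.77 to -0.49) in BFP- cells was the only one of a nuclear member past 1.5-fold, beside -0.42 (-0.74 to -0.10) in BFP+ cells. Cox7c, a small subunit of complex IV, had 581 CPM in MC903 BFP+ cells against 717 CPM in untreated BFP+ cells, and 595 CPM in MC903 BFP- cells against 706 CPM in untreated BFP- cells. These are log2 ratios of -0.30 (-0.37 to -0.23) and -0.25 (-0.28 to -0.21). Ndufa6, an accessory subunit of the matrix arm whose promoter is shown above, had 186 CPM in MC903 BFP+ cells against 219 CPM in untreated BFP+ cells, and 192 CPM in MC903 BFP- cells against 267 CPM in untreated BFP- cells. Its log2 ratio was -0.23 (-0.36 to -0.11) in BFP+ and -0.48 (-0.53 to -0.42) in BFP- cells. Atp5mpl, a small membrane subunit of ATP synthase (log2 -0.23 and -0.32), and Ndufb11 (-0.35 and -0.21) and Ndufb4 (-0.26 and -0.20), both of the membrane arm of complex I, completed the 6 lowest. With TMM factors each of these 6 still had a negative ratio in both populations.

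**Figure D2:**
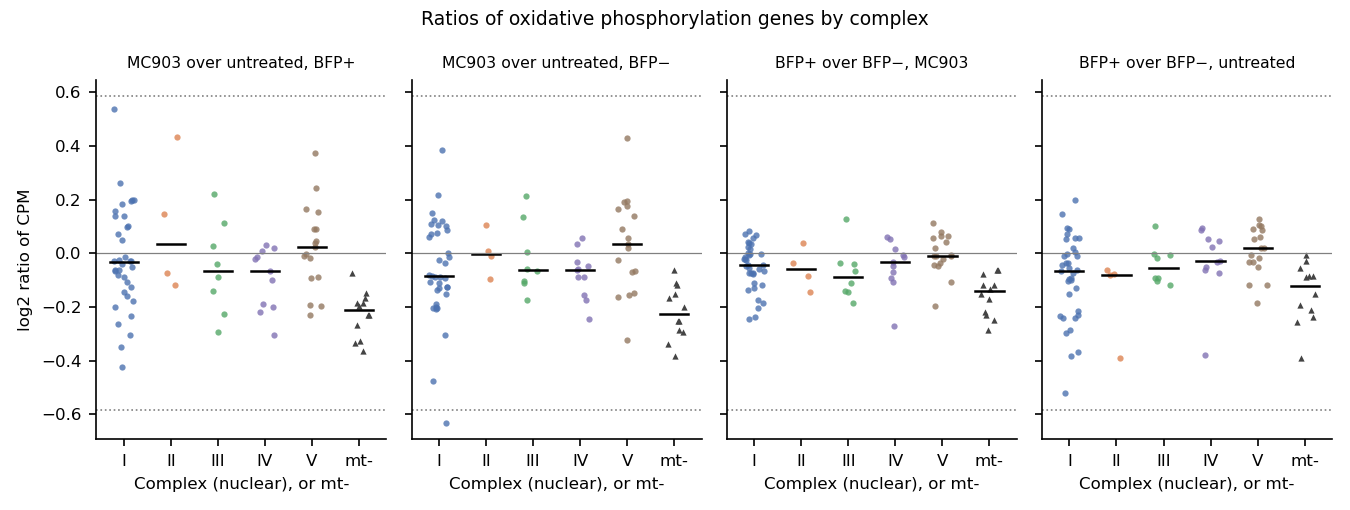
Log2 CPM ratios of the members that passed the level filter, for MC903 over untreated in each population and BFP+ over BFP- in each capture. Each dot is a nuclear gene in its complex, each triangle an mt- encoded gene, the bar is the median and dotted lines mark 1.5-fold. Nuclear members scatter around 0 in every complex, with Ndufv2 highest at 0.54 and Ndufa5 lowest at -0.63 between the captures, while mt- members lie below 0 in all 4 population comparisons.

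The mt- encoded members were lower in the MC903 capture as a group. In BFP+ cells all 12 with a ratio were below 0, with a median log2 of -0.21, and in BFP- cells all 12 were below 0 with a median of -0.23. Of all 4748 genes, 2665 were below 0 in BFP+ and 2539 in BFP- cells. With TMM factors 11 of the 12 mt- members stayed below 0 in BFP+ cells (all but mt-Co2). In BFP- cells 9 of the 12 did (all but mt-Co1, mt-Co2 and mt-Atp8), with medians of -0.08 in both. None of the 12 was 1.5-fold lower in either population (3.69% of all genes in BFP+ and 3.98% in BFP- cells), and 4 were 1.2-fold lower in each (19% and 17.6% of all genes). Where the filter on mt- UMIs was set at 5%, the medians were -0.10 in both populations. In BFP+ cells the median was -0.37 with cells thinned to 2000 UMIs and -0.35 with HTODemux populations.

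Markers of other cells moved with this comparison. The 6 monocyte and macrophage markers summed to 126 CPM in MC903 BFP+ cells against 525 CPM in untreated BFP+ cells, and to 251 CPM in MC903 BFP- cells against 445 CPM in untreated BFP- cells. The 3 red cell markers summed to 0.712 CPM in MC903 BFP+ cells against 320.1 CPM in untreated BFP+ cells, and the 4 neutrophil markers to 0.533 CPM in MC903 BFP- cells against 219 CPM in untreated BFP- cells. A list of 11 early response and heat shock genes had a median log2 ratio of -0.16 in BFP+ and -0.57 in BFP- cells. In BFP+ cells Jun alone was 1.5-fold higher (2.95% of all genes) and none was lower (3.69%). In BFP- cells 5 of 11 were 1.5-fold lower (Atf3, Fosb, Jund, Hspa1b and Hspa1a), against 3.98% of all genes, and none was higher (4.76%). The part of these markers and early genes in the ratios of the mt- and nuclear members was not tested.

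Among the mt- members, mt-Nd2 of complex I was lowest in both populations. It had 1220 CPM in MC903 BFP+ cells against 1571 CPM in untreated BFP+ cells, and 1421 CPM in MC903 BFP- cells against 1852 CPM in untreated BFP- cells. Its log2 ratios were -0.36 (-0.41 to -0.32) and -0.38 (-0.40 to -0.36), and both MC903 pools lay below both untreated ones. mt-Nd5, at 242 CPM in MC903 BFP+ cells against 306 CPM in untreated BFP+ cells, had a log2 ratio of -0.34 (-0.44 to -0.23). mt-Nd3 was at -0.33 in BFP+ and -0.25 in BFP- cells, mt-Nd1 at -0.23 and -0.25, mt-Nd4 at -0.23 and -0.20, and mt-Nd4l at -0.20 and -0.34. mt-Cytb, the one mitochondrial subunit of complex III, had 2024 CPM in MC903 BFP+ cells against 2435 CPM in untreated BFP+ cells, and 2373 CPM in MC903 BFP- cells against 2907 CPM in untreated BFP- cells, so it too was lower in both MC903 pools. The member nearest 0 in both populations was mt-Co2, a catalytic subunit of complex IV. It had 6086 CPM in MC903 BFP+ cells against 6397 CPM in untreated BFP+ cells (log2 -0.07), and 6362 CPM in MC903 BFP- cells against 6646 CPM in untreated BFP- cells (-0.06). mt-Co1 was at -0.17 in BFP+ and -0.11 in BFP- cells, mt-Co3 at -0.18 and -0.15, and the ATP synthase subunits mt-Atp6 at -0.15 and -0.17 and mt-Atp8 at -0.19 and -0.12. mt-Atp8 and mt-Atp6, mt-Atp6 and mt-Co3, and mt-Nd4l and mt-Nd4 overlap on the same strand of the mitochondrial genome, so reads could be split between them.

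**Figure D3:**
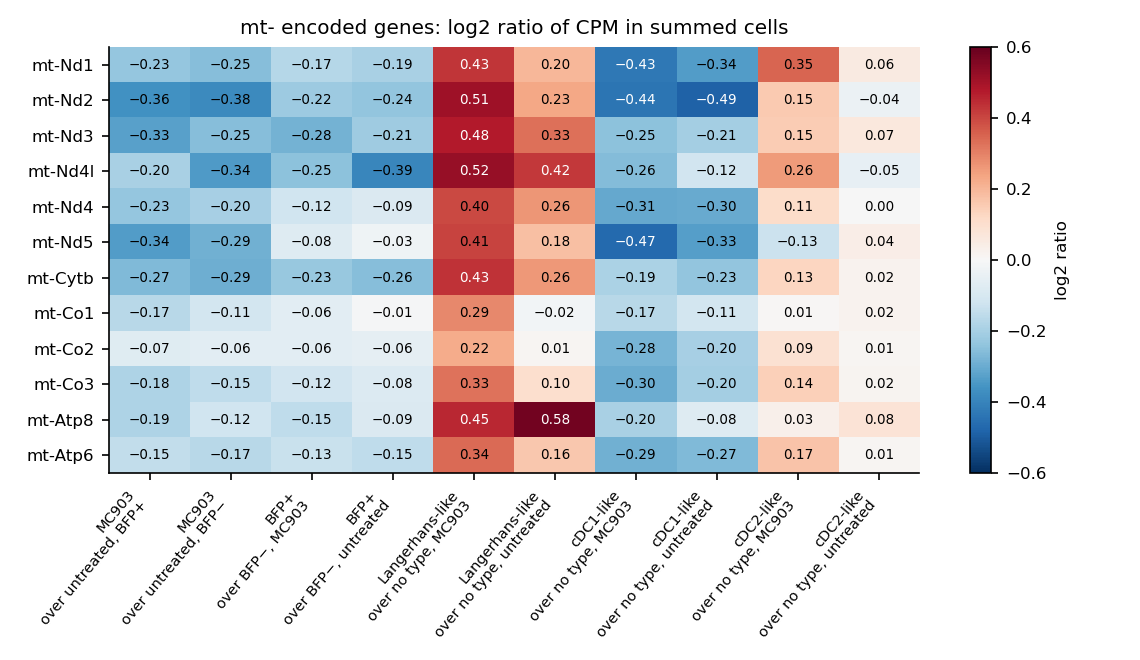
Heat map of log2 CPM ratios of each mt- encoded member with a ratio (rows) in each comparison (columns), with the value printed in the cell. Ratios of MC903 over untreated run between -0.38 and -0.06, all 12 are negative in both cDC1-like comparisons, and all 12 are positive in the Langerhans-like cells of the MC903 capture.

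Between BFP+ and BFP- cells of the same capture, nuclear members differed little. In the MC903 capture the median log2 ratio of BFP+ over BFP- was -0.04, against -0.02 for all genes. None of the 76 was 1.5-fold higher (1.05% of all genes) or lower (1.83%), none was 1.2-fold higher (5.33%) and 1 was 1.2-fold lower (8.82%). In the untreated capture the median was -0.04, with a median of all genes that rounds to 0. None was 1.5-fold higher (3.2% of all genes) or lower (2.97%), none was 1.2-fold higher (13.3%) and 7 were 1.2-fold lower (14.3%). With TMM factors the medians were -0.01 in the MC903 and 0.00388 in the untreated capture.

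Levels split these ratios. Of the 38 nuclear members below a mean of 161 CPM, 32 were lower in BFP+ cells in each capture, with medians of -0.07 in the MC903 and -0.10 in the untreated capture. Of the 38 at or above it, 22 and 19 were lower, with medians of -0.01 and 0.01. Of all genes below the same level, 2288 of 3975 were lower in the MC903 and 2032 in the untreated capture, with medians of -0.03 and -0.00473. Of all genes at or above it, 400 and 346 of 773 were lower. This split was drawn after the ratios had been seen and was not tested.

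Cox5a, a nuclear subunit of complex IV on its matrix side, had the largest deficit in BFP+ cells that was found in both captures. It had 391 CPM in MC903 BFP+ cells against 471 CPM in MC903 BFP- cells, and 386 CPM in untreated BFP+ cells against 502 CPM in untreated BFP- cells. Both BFP+ pools lay below both BFP- pools, with log2 ratios of -0.27 (-0.31 to -0.23) and -0.38 (-0.47 to -0.29). The BFP+ pools also held less of the type markers. The 7 cDC1 markers summed to 39.4 CPM in MC903 BFP+ cells against 153 CPM in MC903 BFP- cells, and to 62.2 CPM in untreated BFP+ cells against 179 CPM in untreated BFP- cells. The 6 Langerhans markers summed to 53.5 CPM against 144 CPM in the MC903 pair, and to 146 CPM against 360 CPM in the untreated pair. Their part in the ratios between BFP+ and BFP- cells was not tested. Ndufa9, an accessory subunit of complex I whose promoter is shown above, had 31.7 CPM in MC903 BFP+ cells against 37.4 CPM in MC903 BFP- cells, and 27.6 CPM in untreated BFP+ cells against 39.6 CPM in untreated BFP- cells. Its log2 ratios were -0.24 (-0.39 to -0.09) and -0.52 (-0.87 to -0.19). Ndufc1 (log2 -0.20 and -0.23), Ndufa12 (-0.18 and -0.37) and Ndufa5 (-0.17 and -0.38), all accessory subunits of complex I, and Atp5g1 (-0.20 and -0.19) were also lower in both captures. Uqcrh, the hinge protein of complex III, was highest, with 969 CPM in MC903 BFP+ cells against 888 CPM in MC903 BFP- cells, and 998 CPM in untreated BFP+ cells against 929 CPM in untreated BFP- cells. These are log2 ratios of 0.13 (0.10 to 0.16) and 0.10 (0.05 to 0.16). Ndufa11 (0.08 and 0.20), Atp5h (0.08 and 0.10), Ndufa7 (0.07 and 0.07), Ndufa2 (0.07 and 0.06) and Atp5e (0.06 and 0.09) followed, all within 1.2-fold.

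All 12 mt- members with a ratio were lower in BFP+ cells in both captures. Of all 4748 genes, 2688 were lower in the MC903 and 2378 in the untreated capture. The median log2 ratio of these members was -0.14 in the MC903 and -0.12 in the untreated capture. In each capture 1 of 12 was 1.2-fold lower (8.82% of all genes in the MC903 and 14.3% in the untreated capture). None was 1.5-fold lower (1.83% and 2.97% of all genes). With TMM factors all 12 stayed below 0 in the MC903 capture and 10 in the untreated one (all but mt-Co1 and mt-Nd5). mt-Nd3 had 396 CPM in MC903 BFP+ cells against 482 CPM in MC903 BFP- cells, and 496 CPM in untreated BFP+ cells against 575 CPM in untreated BFP- cells. mt-Co1 had 7023 CPM in MC903 BFP+ cells against 7333 CPM in MC903 BFP- cells, and 7884 CPM in untreated BFP+ cells against 7912 CPM in untreated BFP- cells, so its pools of 1 capture lay close together. The untreated median was 0.04 with HTODemux populations, -0.02 where every cell was thinned to 2000 UMIs, and -0.19 where a hashtag had to hold 90% of the counts. Its direction thus changed with how hashtags were read. Its size also changed with thinning, which left out 51 untreated BFP+ and 789 untreated BFP- cells. With the lower limit on mt- UMIs given above, the untreated median was -0.02. In the band of 4000 to 16000 UMIs, chosen after seeing the data, the untreated median was -0.17. Median UMIs per cell were 4841 in untreated BFP+ and 2636 in untreated BFP- cells. The part of depth in this median was not tested.

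DC types were gated by markers, so that a cell counted as Langerhans-like, cDC1-like or cDC2-like if at least 2 markers of 1 type, and fewer of the other types, were detected. Deeper cells meet this more easily. The gates held 350 MC903 and 422 untreated Langerhans-like cells, 392 and 318 cDC1-like cells, 203 and 392 cDC2-like cells, and 3737 and 4971 DCs with no type gate, to which each type is compared within its capture. Median UMIs per cell were 9570 and 3973 in Langerhans-like, 10992 and 4683 in cDC1-like, 15284 and 2970 in cDC2-like and 9488 and 2519 in ungated DCs. The gates were drawn on these markers, so that their sums stand apart was fixed in advance. Langerhans markers were at 517 CPM in MC903 Langerhans-like cells against 69.1 CPM in ungated ones, cDC1 markers at 683 against 52.4 CPM in cDC1-like cells, and cDC2 markers at 838 against 66.2 CPM in cDC2-like cells. The untreated values were 1025 against 213, 706 against 91.7 and 1693 against 92.3 CPM. Untreated cDC1-like cells also had 346 CPM of Langerhans markers.

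With hashtags not used, Langerhans-like cells had the largest share of mt- encoded UMIs among the DC types. Their share was 4.38% in MC903 Langerhans-like cells against 3.49% in MC903 DCs with no type gate, and in the untreated capture 4.33% against 4.01%. The median log2 ratio over the 12 members was 0.42 in the MC903 capture, where 11 of 12 were 1.2-fold higher (16.4% of all genes), and 0.21 in the untreated capture, where 4 were (18.4%). With TMM factors the medians were 0.25, with all 12 above 0, and 0.0903, with 9 of 12 above 0. mt-Nd2 had 1906 CPM in MC903 Langerhans-like cells against 1338 CPM in MC903 ungated DCs, and 2128 CPM in untreated Langerhans-like cells against 1814 CPM in untreated ungated DCs. mt-Co1 had 8799 CPM against 7217 CPM in the MC903 capture, and 7916 CPM against 8002 CPM in the untreated one, the single member below 0 there (log2 -0.02, -0.04 to 0.01). No mt- member reached 1.5-fold.

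The nuclear members of Langerhans-like cells had a median log2 ratio of 0.09 in the MC903 capture, against 0.05 for all genes, and of 0.03 against 0.06 in the untreated one. TMM factors turned both below 0, to -0.08 and -0.09. None was 1.5-fold higher or lower in either capture, against 2.34% and 3.2% of all genes in the MC903 capture and 1.66% and 2.32% in the untreated one. Within the gate, BFP+ cells had the lower mt- share in both captures: 3.23% in 35 MC903 BFP+ cells against 4.63% in 303 MC903 BFP- cells, and 3.88% in 30 untreated BFP+ cells against 4.43% in 333 untreated BFP- cells. In the MC903 capture the gate took 35 of the 1418 BFP+ cells and 303 of the 3146 BFP- cells. In ungated DCs the same order held, with 3.32% in MC903 BFP+ against 3.57% in MC903 BFP- cells, and 3.76% in untreated BFP+ against 4.06% in untreated BFP- cells. It was the other way round in MC903 cDC1-like cells (2.99% in 38 BFP+ against 2.88% in 341 BFP- cells) and in untreated cDC2-like cells (4.22% in 16 BFP+ against 4.04% in 309 BFP- cells). Among BFP+ cells alone, Langerhans-like cells did not have the highest mt- share. In the MC903 capture their 3.23% lay below ungated DCs (3.32%) and 57 cDC2-like cells (3.61%). In the untreated capture their 3.88% lay below the cDC2-like cells (4.22%).

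The cDC1-like cells had the fewest mt- UMIs of the DC types, 2.90% in MC903 cDC1-like cells against 3.49% in ungated DCs, and 3.44% against 4.01% in the untreated capture. All 12 mt- members were lower than in ungated DCs in both captures under each scaling, with median log2 ratios of -0.28 and -0.22. By CPM, 2549 of all 4748 genes were lower in the MC903 and 2439 in the untreated capture. The MC903 median of the mt- members was -0.47 with cells thinned to 2000 UMIs and -0.76 with gates drawn on thinned cells. Their untreated median was -0.05 with at most 5% mt- UMIs. Of the 12 mt- members, 7 were 1.2-fold lower in the MC903 capture (22.5% of all genes) and 5 in the untreated one (16.2%). mt-Nd2 had 986 CPM in MC903 cDC1-like cells against 1338 CPM in ungated DCs, and 1296 CPM in untreated cDC1-like cells against 1814 CPM in ungated DCs. Its log2 ratios of -0.44 (-0.48 to -0.40) and -0.49 (-0.54 to -0.43) were alike in both captures, and no mt- member reached 1.5-fold.

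Nuclear members in cDC1-like cells had medians of 0.03 in both captures, against -0.03 (MC903) and -0.01 (untreated) for all genes, and both turned below 0 where mt- and ribosomal protein genes were left out of the total (-0.07 and -0.01), as did the MC903 one with TMM factors (-0.00315). In the MC903 capture 1 of 76 was 1.5-fold higher, against 5.67% of all genes, and none lower, against 5.67%; in the untreated capture none was higher (2.51%) or lower (4%). The 1 gene was Cox5a, with 714 CPM in MC903 cDC1-like cells against 401 CPM in ungated DCs, a log2 ratio of 0.83 (0.78 to 0.89). In the untreated capture it had 564 CPM in cDC1-like cells against 466 CPM in ungated DCs, a smaller ratio of 0.27 (0.19 to 0.36). Langerhans-like cells had 488 CPM of Cox5a in the MC903 and 537 CPM in the untreated capture, so the MC903 cDC1-like cells were the highest of the 8 DC groups. Ndufv2 was also high in cDC1-like cells, with 200 CPM against 133 CPM in the MC903 capture (log2 0.58) and 136 CPM against 106 CPM in the untreated one (0.36). All 11 nuclear complex IV members with a ratio were above 0 in untreated cDC1-like cells, and 7 of them in MC903 ones. Of all 4748 genes, 2309 were above 0 in untreated and 2199 in MC903 cDC1-like cells.

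The cDC2-like cells of the MC903 capture had more nuclear members above than below the level of ungated DCs. The nuclear share was 1.90% in MC903 cDC2-like cells against 1.77% in ungated DCs, and 1.84% against 1.84% in the untreated capture. In the MC903 capture the median log2 ratio was 0.25, against -0.03 for all genes. There 10 of 76 were 1.5-fold higher, against 7.92% of all genes, and none was lower, against 9.84%. At 1.2-fold 38 of 76 were higher, against 23.4% of all genes. In the untreated capture the median was 0.07, against -0.03 for all genes. There none was 1.5-fold higher (8.47% of all genes) or lower (8.85%), and at 1.2-fold 15 of 76 were higher (22.5% of all genes). With TMM factors the medians were 0.13 and -0.01.

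The members 1.5-fold higher in MC903 cDC2-like cells came from complexes I, II, III and V, and none from complex IV. Sdhc, a membrane anchor of complex II, had 54.4 CPM in MC903 cDC2-like cells against 25.8 CPM in ungated DCs, a log2 ratio of 1.08 (0.84 to 1.31). In the untreated capture it had 24.4 CPM in cDC2-like cells against 26.5 CPM in ungated DCs, so the excess was not seen there. Atp5g1, the c subunit gene, had 262 CPM against 136 CPM in the MC903 capture (log2 0.95, 0.84 to 1.05), and 161 CPM against 138 CPM in the untreated one (0.22, 0.03 to 0.40). Ndufb8, an accessory subunit of the membrane arm of complex I, had 205 CPM against 123 CPM in the MC903 capture (0.74, 0.62 to 0.85), and 168 CPM against 117 CPM in the untreated one (0.52, 0.34 to 0.70), the most even of the 10. The others were Ndufb2 (0.85), Ndufc1 (0.83), Ndufs8 (0.69), Ndufa12 (0.63) and Ndufa9 (0.62) of complex I, Uqcrc1 (0.75) of complex III, and Atp5g3 (0.71), a further c subunit gene. Ndufb2 and Ndufb8 overlap another gene on the same strand.

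Some members of high level were lower. Cox7a2l, which helps to join complexes III and IV into supercomplexes, had 442 CPM in MC903 cDC2-like cells against 625 CPM in ungated DCs (log2 -0.50, -0.58 to -0.42), and 575 CPM against 686 CPM in the untreated capture (-0.26). Uqcrh had 695 CPM against 949 CPM in the MC903 capture (-0.45, -0.51 to -0.39), and 838 CPM against 953 CPM in the untreated one (-0.19). Of the 38 members below a mean of 161 CPM, 34 were above 0 in the MC903 and 30 in the untreated capture, with medians of 0.37 and 0.11. Of all genes below that level, 1894 and 1921 of 3975 were above 0, with medians of -0.02 in both captures. Of the 38 members at or above it, 25 and 21 were above 0, with medians of 0.09 and 0.03. Of all genes there, 329 and 295 of 773 were above 0, with medians of -0.09 in both captures. By complex, the MC903 medians were 0.27 for complex I, 0.32 for II, 0.31 for III and 0.24 for V. Complex IV had a median of -0.000705 with 6 of 11 below 0, against 2525 of all 4748 genes. The mt- members had medians of 0.14 in the MC903 and 0.02 in the untreated capture, which with TMM factors were 0.02 and -0.06.

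**Figure D4:**
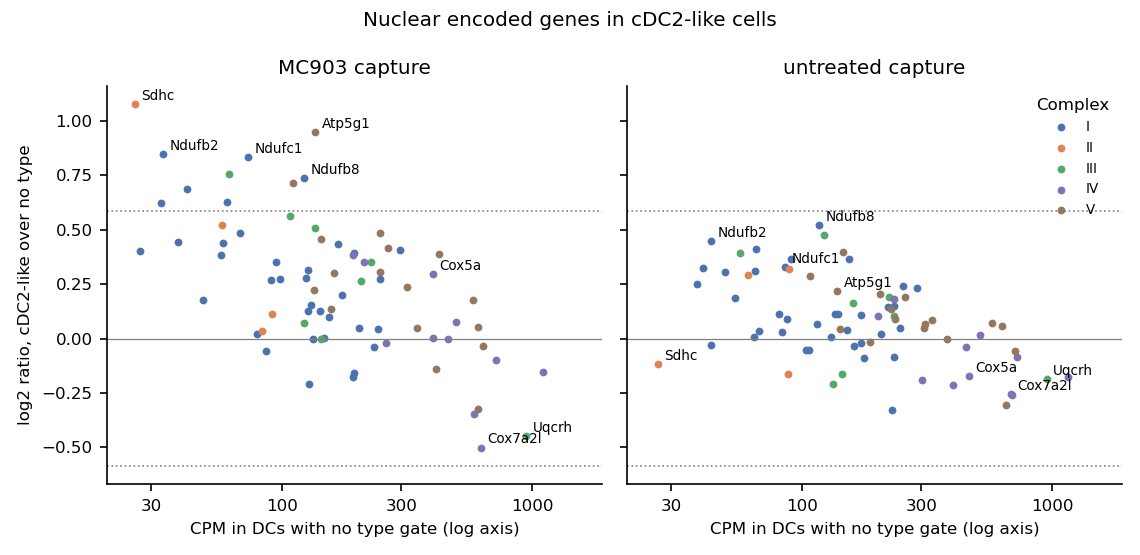
Log2 CPM ratio of cDC2-like cells over DCs with no type gate (vertical) against the CPM in ungated DCs (horizontal, log axis) for the 76 nuclear members, in the MC903 and the untreated capture, 1 point per gene coloured by complex. Dotted lines mark 1.5-fold. Members of low level lie above 0 in the MC903 capture up to Sdhc at 1.08, while Uqcrh and Cox7a2l lie below 0 in both captures; the level on the horizontal axis is also the lower part of the ratio.

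Markers of monocytes and macrophages moved with the cDC2-like gate. Their 6 genes summed to 2072 CPM in MC903 cDC2-like cells against 80.7 CPM in MC903 ungated DCs, and to 1896 CPM against 418 CPM in the untreated capture. Lyz2 made up 1506 CPM and 1357 CPM of the sums in cDC2-like cells. The 8 migratory DC markers summed to 10812 CPM in MC903 cDC2-like cells against 13630 CPM in ungated DCs, and to 7904 CPM against 11626 CPM in the untreated capture. Their part in the ratios of the members was not tested, nor was that of the median depth, which was 15284 UMIs in MC903 cDC2-like cells and 9488 UMIs in MC903 ungated DCs.

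Within each gate the captures could also be compared. The median log2 ratio of MC903 over untreated for nuclear members was -0.01 in Langerhans-like, -0.03 in cDC1-like, 0.05 in cDC2-like and -0.07 in ungated DCs. For the mt- members it was -0.09 in Langerhans-like, -0.29 in cDC1-like, -0.12 in cDC2-like and -0.26 in ungated DCs. In Langerhans-like cells the sum of the mt- members was slightly higher in the MC903 capture (log2 0.02, 0.00468 to 0.03), against a median below 0.

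The shares were also read by depth. In DCs of 8000 to 16000 UMIs the mt- share was 3.41% in 2710 MC903 cells against 3.58% in 579 untreated cells, and in DCs of 16000 to 32000 UMIs 3.56% in 492 MC903 cells against 3.55% in 78 untreated cells. At 2000 to 4000 UMIs it was 4.33% in 234 MC903 cells against 4.26% in 3490 untreated cells, and at 1000 to 2000 UMIs 5.35% in 41 MC903 cells against 4.08% in 977 untreated cells. The share was lower in both groups above 8000 UMIs than in the groups below 8000 UMIs in each capture, but not in steady order: the shallowest untreated cells were below the next deeper group. At 4000 to 8000 UMIs the share was 3.77% in MC903 cells against 4.13% in untreated cells. The nuclear share at 8000 to 16000 UMIs was 1.78% in MC903 cells against 1.82% in untreated cells, and was lowest, at 1.38%, in the 41 MC903 cells of 1000 to 2000 UMIs.

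**Figure D5:**
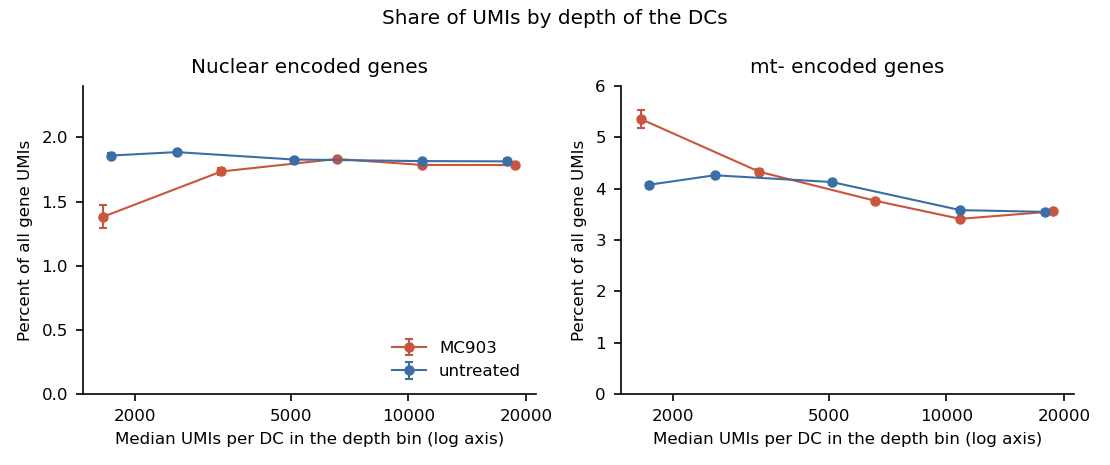
Share of all gene UMIs (percent) of nuclear and of mt- encoded members in DCs grouped by UMIs per cell, drawn at the median depth of the group (log axis), for the MC903 and untreated captures, with exact 95% intervals. The nuclear share is level near 1.8% except for 1.38% in the shallowest MC903 cells, and the mt- share is highest, at 5.35%, in the shallowest MC903 cells and 3.56% and 3.55% in the deepest MC903 and untreated cells.

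Single cells were compared after each was thinned to 2000 UMIs, which left out 49 shallower MC903 DCs and 1147 untreated DCs. Nuclear members gave a median of 36 UMIs per cell in MC903 DCs and 37 in untreated DCs, with 25 members detected per cell in both, and no cell lacked them. Their variance was 2.03 times the mean in MC903 DCs and 1.67 times the mean in untreated DCs, where counting alone gives a variance about equal to the mean. The mt- members gave a median of 67 UMIs per MC903 DC and 77 per untreated DC, with a variance of 17.6 and 22.0 times the mean. By population the mt- median was 61 in MC903 BFP+ cells against 75 in untreated BFP+ cells, and 69 in MC903 BFP- cells against 78 in untreated BFP- cells. It was 91 and 84 in Langerhans-like, 49.5 and 65 in cDC1-like and 76 and 80 in cDC2-like cells of the MC903 and untreated captures. Unthinned, the shares in MC903 and untreated DCs were 3.52% and 3.99%. Most of the spread among single DCs was thus in the mt- members.

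Several subunits have isoforms that are known for certain tissues. The ubiquitous forms carried the counts here. Cox4i1 had 1093 CPM in MC903 BFP+ cells, while Cox4i2, known from lung, had 14 UMIs in all MC903 DCs and 12 in all untreated DCs. Cox7b2, Cox8b and Cox8c had no UMI in any DC group. Cox6a1 had 197 CPM in MC903 BFP+ cells, whereas Cox6a2, the heart and muscle form, had 28 UMIs in 4682 MC903 DCs and 18 UMIs in 6103 untreated DCs. Of these, 21 came from 3 MC903 cDC2-like cells and 15 of them from 1 cell. Siglech, a marker of plasmacytoid DCs, was detected in 2 of the 3 cells. Cox7a1, the other muscle form, had 148 UMIs in MC903 and 31 in untreated DCs, or 2.33 CPM in MC903 BFP+ cells, where Cox7a2 had 258 CPM. Cox6b2, known from testis, had 25.0 CPM in untreated cDC2-like cells against 8.34 CPM in untreated ungated DCs, from 42 UMIs spread over 35 cells, and 11.9 CPM against 11.0 CPM in the MC903 capture.

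The 3 genes of the c subunit encode the same mature protein. Atp5g2 had 613 CPM in MC903 BFP+ cells against 651 CPM in untreated BFP+ cells, Atp5g1 134 CPM against 121 CPM, and Atp5g3 116 CPM against 109 CPM. This order held in all 4 populations. In MC903 cDC2-like cells Atp5g2 was lower (484 CPM against 605 CPM in ungated DCs) while Atp5g1 and Atp5g3 were higher. Of complex II, Sdhd had 91.6 CPM in MC903 BFP+ cells, Sdha, the flavoprotein, 80.6 CPM, Sdhb, the iron-sulfur subunit, 56.3 CPM and Sdhc 27.9 CPM. Ndufa4, named for complex I but known as a subunit of complex IV, had 289 CPM in MC903 BFP+ cells against 275 CPM in untreated BFP+ cells, and its paralog Ndufa4l2 at most 0.185 CPM in any population.

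Other genes of the pathway were read from lists. Of 47 assembly factors 20 passed the level filter, with median log2 ratios of MC903 over untreated of -0.02 in BFP+ and -0.01 in BFP- cells. Of the 20, none was 1.5-fold higher (2.95% of all genes) or lower (3.69%) in BFP+ cells, and 2 were higher in BFP- cells (4.76% of all genes): Tmem70, which helps to assemble ATP synthase, and Sdhaf2, which inserts the flavin of complex II. The 53 of 78 genes of the mitochondrial ribosome that passed had medians of -0.03 and -0.04, and 10 of 13 genes of the tricarboxylic acid cycle had -0.03 and -0.00424. Atpif1, the inhibitor of ATP synthase, had 613 CPM in MC903 BFP+ cells against 584 CPM in untreated BFP+ cells, and 602 CPM in MC903 BFP- cells against 486 CPM in untreated BFP- cells. Cycs, which encodes cytochrome c, had 70.8 CPM in MC903 BFP+ cells against 85.5 CPM in untreated BFP+ cells, and 86.6 CPM in MC903 BFP- cells against 96.7 CPM in untreated BFP- cells. Of 15 rows of glycolysis genes, among which Aldoa has 2 identifiers, 10 passed. Their median was 0.24 in BFP+ and 0.07 in BFP- cells. Gapdh had 1200 CPM in MC903 BFP+ cells against 756 CPM in untreated BFP+ cells, and 1000.3 CPM in MC903 BFP- cells against 644 CPM in untreated BFP- cells, and Ldha 93.7 CPM against 61.9 CPM in BFP+ cells. In MC903 cDC2-like cells the glycolysis median was 0.48, with 4 of 10 1.5-fold higher (Eno1, Ldha, Pkm and Pfkp) against 7.92% of all genes, beside 0.25 for the nuclear members and 0.32 for the tricarboxylic acid cycle. In untreated cDC2-like cells it was 0.20, with 3 of 10 1.5-fold higher (Eno1, Ldha and Pfkp) against 8.47% of all genes.

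Factors whose motifs were searched were measured as well. Nrf1 had 22.0 CPM in MC903 BFP+ cells against 26.6 CPM in untreated BFP+ cells, the DNA-binding GABP subunit Gabpa 17.0 CPM against 18.3 CPM (below the filter), its partner Gabpb1 31.5 CPM against 29.9 CPM, and Yy1 95.2 CPM against 102 CPM. Ppargc1a, a coactivator of mitochondrial genes, was below the filter at 4.14 CPM against 6.32 CPM. Tfam, which packages and transcribes the mitochondrial genome, was also below it, at 14.9 CPM in MC903 BFP+ cells against 14.6 CPM in untreated BFP+ cells.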

How the data were processed

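Whole-number UMI counts per gene and cell, with hashtag counts in the same matrices, were deposited by the authors for 2 captures, each of which appears in the labels as a transcript and a hashtag sample, 4 in all. The file headers name Cell Ranger 3.1.0, and the submitters' processing notes name GRCm38. Cells with at least 500 genes and at most 10% mt- UMIs were kept, and no caller of doublets was run; cells of mixed hashtags are in no population. Counts were summed over gated DCs and scaled to 1e+06 UMIs (CPM), so deeper cells weigh more. Log2 ratios carry exact conditional 95% intervals of a pair of Poisson counts; a sum of 0 was set to 3 counts. No test between groups was possible with 1 pool per population.

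The members and lists were chosen with earlier results of these data known. Genes named are every mt- member, the 10 nuclear members of highest mean CPM, the 6 each way with the largest smaller ratio of both populations or both captures, and isoform sets; the members called in the cDC2-like and cDC1-like gates, and pathway genes, were named after their values were seen. Gene positions were from GENCODE M21 (99 of 99 matched) and promoters from RefSeq; 12 members overlap another gene on the same strand. Python 3.11.15, numpy 2.4.6, pandas 2.3.3, scipy 1.17.1, R 4.3.3, Seurat 5.3.0 (HTODemux) and edgeR 4.0.16 (TMM factors only) were used. Alternatives were other filters, scalings, hashtag calls, gates and depths.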

Additional observations from a re-analysis of the deposited data

Results flagged for a closer look

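All 88 members with a ratio were searched, and for 5 nuclear members the direction of a comparison differed between the captures. Their intervals, which cover counting error only, lay on opposite sides of 0. The difference between captures was not tested, and the share of all genes that met the same rule was not counted. Cox6b1, a subunit of complex IV, had a log2 ratio of BFP+ over BFP- of -0.049 in the MC903 and 0.086 in the untreated capture. In cDC1-like cells over ungated DCs, Cox6c was at -0.088 in the MC903 and 0.10 in the untreated capture, and Cox8a at -0.10 and 0.13. In cDC2-like cells over ungated DCs, Cox5a was at 0.30 in the MC903 and -0.17 in the untreated capture, and Ndufa6 at -0.18 and 0.24. Hashtags of the other capture made up 0.200% of all hashtag counts in the MC903 capture and 0.00578% in the untreated capture, a signal that no comparison uses.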

How the results depend on the processing

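No paired analysis was possible because each population is 1 pool and no result comes from a test. A median was called moved if it left the 95% interval of the median over its member genes. A count was called moved if it changed by more than 1.5-fold, or to or from 0. The interval describes scatter between genes and not the uncertainty of a result between pools. By this rule, asking for at least 1000 genes or a mean of 5 CPM moved none of 28 results. A hashtag share of 90%, run for 16 of the 28, moved none, though the untreated BFP+ over BFP- mt- median was -0.19 against -0.12. Limits are the unequal depth, the mt- filter, which acts on the mt- sum itself, the unclear untreated hashtags, and gates that deeper cells meet more easily. The share of all genes past 1.5-fold was not counted under the alternative settings below. Counts of members past 1.5-fold there thus cannot be set against all genes.

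TMM factors moved the nuclear medians to 0.10 (MC903 over untreated, BFP+), 0.084 (BFP-), -0.0078 (BFP+ over BFP-, MC903), 0.00388 (untreated), -0.076 and -0.091 (Langerhans-like, MC903 and untreated, the first a reversal of 0.093) and -0.0094 (untreated cDC2-like). They moved the mt- medians to -0.082 (BFP+) and -0.084 (BFP-) for treatment, 0.25 and 0.090 (Langerhans-like), and 0.021 and -0.060 (cDC2-like). With them 1 nuclear member was 1.5-fold higher in BFP+ and 0 lower in BFP- cells between captures. Without mt- and ribosomal protein genes in the total, nuclear medians were -0.11 (BFP-, treatment), -0.067 (MC903 cDC1-like) and -0.013 (untreated cDC1-like).

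With at most 5% mt- UMIs, mt- medians were -0.10 in both treatment comparisons, -0.067 and -0.024 (BFP+ over BFP-, MC903 and untreated), 0.32 (MC903 Langerhans-like), -0.052 (untreated cDC1-like), and 0.21 and 0.10 (cDC2-like). With at most 20% the untreated cDC2-like value was -0.053. In cells thinned to 2000 UMIs, mt- medians were -0.37 (BFP+, treatment), -0.023 (BFP+ over BFP-, untreated), -0.47 (MC903 cDC1-like) and -0.013 (untreated cDC2-like), the nuclear MC903 cDC1-like median was 0.053, and 2 members were 1.5-fold higher and 1 lower (BFP+, treatment) and 1 lower (BFP+ over BFP-, untreated). Gates drawn on thinned cells gave mt- medians of -0.76 (MC903 cDC1-like) and 0.26 (MC903 cDC2-like) and a nuclear one of 0.39 (MC903 cDC2-like).

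With HTODemux populations mt- medians were -0.35 (BFP+, treatment) and 0.043 (BFP+ over BFP-, untreated), the nuclear one 0.014 (BFP+ over BFP-, untreated), and 1 member was lower (BFP+, treatment). Without a DC gate the untreated BFP+ over BFP- mt- median was -0.042 and 1 member was lower (BFP+, treatment). Without a level filter, members 1.5-fold higher and lower were 1 and 3 (BFP-, treatment), 1 lower (BFP+ over BFP-, MC903) and 1 higher (untreated). At 1.2-fold the counts were 3 higher and 6 lower (BFP+) and 2 and 4 (BFP-) for treatment, and 1 lower (MC903) and 7 lower (untreated) for BFP+ over BFP-.

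A band of 4000 to 16000 UMIs, chosen after seeing the data, gave mt- medians of -0.15 (BFP+, treatment), 0.52 and 0.39 (Langerhans-like) and 0.080 (untreated cDC2-like), nuclear medians of 0.070 (untreated Langerhans-like) and 0.072 and 0.10 (cDC1-like), 0 lower (BFP-, treatment) and 1 lower (BFP+ over BFP-, untreated). The cause of these shifts was not tested.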
